A study of Mus musculus with 3 samples.

Results

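Ahr and Cyp1b1 were followed in 3 chromatin immunoprecipitation libraries of mouse T cells as a pair of genes joined by 1 pathway. They are 2 of 49997 gene symbols in the RefSeq table at hand, where Ahr has the identifier 11622 and Cyp1b1 the identifier 13078. Their members are the reads of fixed intervals on mm9: chr12:36160000-36245000 for Ahr, which is 85 kb long, and chr17:80090000-80135000 for Cyp1b1, which is 45 kb long. Both genes lie on the minus strand, with Ahr running from a start near 36220000 to an end near 36182700 and Cyp1b1 starting near 80114000. These start positions are approximate, since no mm9 annotation was used here, and all distances are counted from them. The intervals held 3 of the 15684 H3K4me3 regions and 4 of the 27061 phospho-STAT3 sites called over the genome. The pair was selected on H3K4me3 read ratios and phospho-STAT3 sites of these same libraries, so all values of its members are a description, with no test.

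The cells were naive CD4 T cells activated through CD3 and CD28 for 72 h under Th17 conditions, which here were 10 ng/ml IL-6, 2.5 ng/ml TGF-b and antibodies blocking IL-2, IL-4 and IFN-g. A second IL-6 pulse of 1 h ended the culture. STAT3-deficient cells carried Stat3fl/fl, FoxP3-GFP and CD4-Cre, a Cre under Cd4 control that recombines the floxed allele in T cells. Wild-type cells, as the labels call them, carried Stat3fl/fl and FoxP3-GFP without Cre, so both groups share the floxed allele and the reporter. The labels give neither the age nor the number of the mice behind a library. H3K4me3 was profiled in STAT3-deficient and in wild-type cells, and STAT3 phosphorylated on a serine in wild-type cells, with 1 library each. There is therefore no replicate anywhere, every interval printed covers counting error only, and a difference between libraries cannot be told apart from a difference between genotypes.

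AHR is a transcription factor that sits in the cytoplasm until a small aromatic ligand binds it. It then enters the nucleus, pairs with ARNT and binds DNA elements with the core GCGTG. Th17 cells express it strongly, and it promotes their IL-22 production. Cyp1b1, a cytochrome P450 that oxidises polycyclic hydrocarbons and oestradiol, is among the classical genes switched on by AHR. STAT3 transmits the IL-6 signal that starts Th17 differentiation, and H3K4me3 marks the nucleosomes at the start of active genes.

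The Cyp1b1 start is where the largest difference at this pair of genes was measured, so its promoter is shown. The sequence is that of RefSeq on GRCm38.p6, chr17:79715012-79715311 on the minus strand, from 250 bases before to 50 after the start, 5′ to 3′. Of the pair, 1 gene had an entry in the table. Its place on mm9 was not derived. Capitals mark a match to the AHR core GCGTG, read here on the other strand as CACGC:

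Cyp1b1 promoter: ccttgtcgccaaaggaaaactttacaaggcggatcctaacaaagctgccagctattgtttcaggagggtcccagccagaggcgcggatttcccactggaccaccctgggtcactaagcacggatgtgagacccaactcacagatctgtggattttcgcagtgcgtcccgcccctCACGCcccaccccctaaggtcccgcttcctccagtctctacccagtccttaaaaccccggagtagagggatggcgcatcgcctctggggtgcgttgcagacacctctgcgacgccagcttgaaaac

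The core occurred 1 time in these 300 bases, 76 bp upstream of the start. On both strands GCGTG was found in 32.4% of 32851 promoters of the same length, so such a match is common. The STAT motif TTCNNNGAA, which reads the same on both strands, was found in 8.30% of those promoters and had 0 matches in this window. The strongest phospho-STAT3 site described below is centred 1.25 kb upstream of the approximate mm9 start, whereas this window reaches 250 bases upstream of the RefSeq start. The site was not placed on GRCm38.p6, and the sequence of the site on mm9 was not used here.

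The STAT3-deficient H3K4me3 library held 12075963 reads, the wild-type H3K4me3 library 12281399 and the phospho-STAT3 library 10127075. H3K4me3 regions held 8.84% of the STAT3-deficient and 7.14% of the wild-type H3K4me3 reads. Log2 ratios are STAT3-deficient over wild-type and were scaled by setting to 0 the median of the 10971 regions that hold 50 or more reads summed over both libraries, called marked regions. Scaling by library totals would raise every ratio by 0.32, so values under both scalings are given where the direction or its interval depends on it. Stat3 itself was not placed on mm9. A stretch of chromosome 11, the chromosome that carries Stat3 on GRCm38.p6, held 0 STAT3-deficient against 27 wild-type H3K4me3 reads over 3681 bp. It was picked for being empty among 101387 stretches of at least 2 kb and shared the first rank with another, where finding 0 reads still permits 11.3% of the wild-type level. T cell and Th17 marker genes and the other genes of the AHR pathway, such as Arnt, Ahrr, Tiparp and Cyp1a1, could not be placed on mm9 and were not analysed here.

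The comparison of both H3K4me3 libraries asks where the active mark depends on STAT3. At the start of Cyp1b1 the mark was close to the level of its surroundings in STAT3-deficient cells and was a clear peak in wild-type cells. The Cyp1b1 region, chr17:80111800-80113799, runs from 0.20 to 2.20 kb downstream of the start position. It held 18 STAT3-deficient reads (exact Poisson 95% interval 10.7 to 28.4) and 110 wild-type reads (90.4 to 132.6). The counts of both libraries are far apart and their counting intervals do not overlap. The log2 ratio was -2.91 (exact 95% interval -3.71 to -2.18), 7.50-fold lower in STAT3-deficient cells, and -2.59 (-3.39 to -1.86) by library totals.

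**Figure D1:**
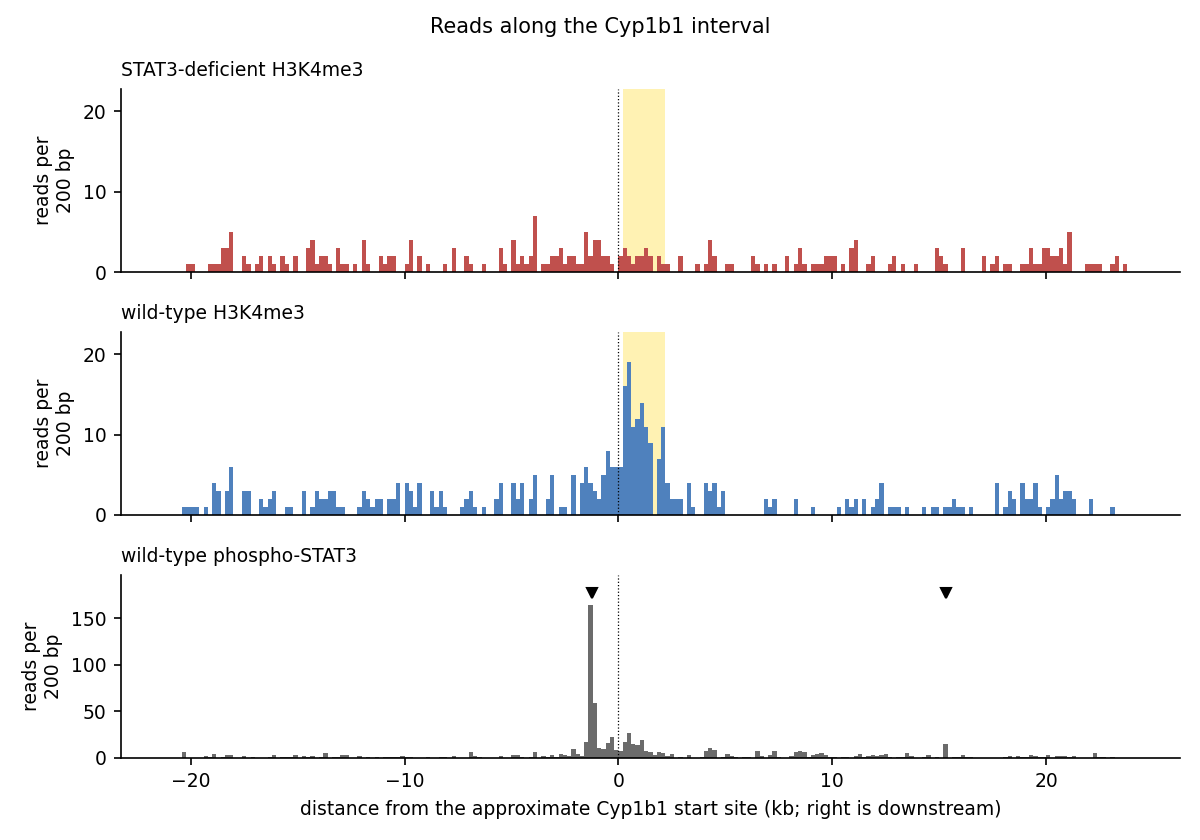
Reads per 200 bp (y axis) along the Cyp1b1 interval by distance from the approximate start site in kb (x axis, right is downstream), with 1 panel for each library. The shaded called region holds 18 STAT3-deficient and 110 wild-type H3K4me3 reads, and triangles mark the 2 phospho-STAT3 sites, the taller at 1.25 kb upstream.

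The difference ran along the whole region. In its 10 windows of 200 bp, the STAT3-deficient library held 0 to 3 reads with a median of 2, and the wild-type library 0 to 19 with a median of 11. STAT3-deficient reads were fewer in 9 windows and equal in 1, where both libraries were at 0. Windows with at least 10 reads numbered 0 in the STAT3-deficient library and 7 in the wild-type library. The wild-type peak was at 0.50 kb downstream of the start position.

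The wild-type mark also reached upstream of the called region. In the 1.15 kb between the region and the nearest phospho-STAT3 site there were 10 STAT3-deficient and 33 wild-type reads, a log2 ratio of -2.02 (-3.20 to -0.96). All of the interval outside the called region, this 1.15 kb included, held 236 STAT3-deficient reads, 5.49 per kb, and 301 wild-type reads, 7.0 per kb. Its log2 ratio was -0.65 (-0.90 to -0.40), and -0.33 (-0.58 to -0.08) by library totals. The STAT3-deficient region, at 9.0 reads per kb, thus stood a little above its surroundings at 5.49, whereas the wild-type region stood at 55.0 reads per kb against 7.0.

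Set against the genome, the Cyp1b1 region was at the edge. A size rule of at least 2-fold with an exact interval excluding no change was passed by 238 of 10971 marked regions (2.17%), by 127 of them in the lower direction (1.16%) and by 111 in the higher direction (1.01%). Of the 3 regions of this pair of genes, 2 passed it as lower and 0 as higher. Since the pair was chosen with these ratios known, nothing is read from that share. By library totals, 54 marked regions (0.492%) were lower by the rule and 319 (2.91%) were higher, and the same 2 regions still passed as lower. The Cyp1b1 ratio was at rank 4 from the lowest of all marked regions, while its 128 reads in both libraries together were an ordinary number, with 47.4% of marked regions holding fewer.

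Among 2629 marked regions with read numbers within 20% of that of Cyp1b1, the lowest log2 ratio was -2.77, the median 0.02 and the highest 2.16. None of them was as low as Cyp1b1, with 0 at or below its ratio. The 5 nearest in ratio held 18 to 32 STAT3-deficient and 86 to 121 wild-type reads, with log2 ratios of -2.77 to -1.77. They carry no gene name here, because the gene table is of another build.

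**Figure D2:**
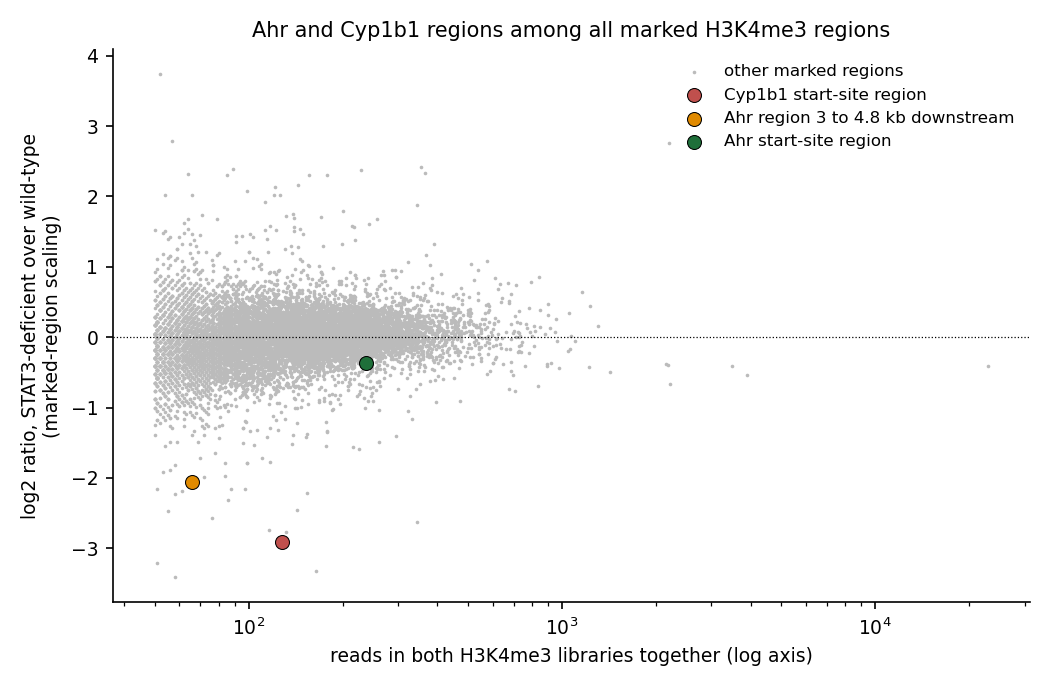
Log2 ratio of H3K4me3 reads, STAT3-deficient over wild-type (y axis, scaled by marked regions), against the reads of both libraries together (x axis, log scale) for 10971 marked regions. The Cyp1b1 region at -2.91 lies below the lowest of 2629 regions of like read number, at -2.77. The Ahr region downstream of the start lies at -2.06 among regions with few reads. The Ahr start-site region at -0.37 lies in the lower part of the main cloud.

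At Ahr itself, the read counts at the gene start were close in both libraries. The start-site region, chr12:36218600-36219999, reaches from the start position to 1.40 kb into the gene. It held 115 STAT3-deficient reads (94.9 to 138.0) and 121 wild-type reads (100.4 to 144.6), and these counting intervals overlap over most of their length. The log2 ratio was -0.37 (-0.75 to 0.01), and -0.05 (-0.43 to 0.33) by library totals. Both intervals include 0, the first by a narrow margin, and a loss of 2-fold or more lies outside both. Of 9 alternative settings that give an interval, 7 placed it wholly below 0, with log2 ratios of -0.60 to -0.38. All 7 kept the scaling by marked regions. With at least 8 reads a window, or called on the wild-type library alone, the region was 4800 bp long and took in the downstream stretch described below. Whether the Ahr start-site region was lower by a small amount thus depends on the scaling and the processing. Scaled by marked regions, the ratio for a fixed window of 1 kb each side was -0.51 (-0.89 to -0.14).

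In unscaled counts, the shape of the Ahr peak was also alike. Both libraries were highest in the same window of 200 bp, 1.10 kb downstream of the start position, with 41 STAT3-deficient and 40 wild-type reads. Over the 7 windows of the region, STAT3-deficient counts were 3 to 41 and wild-type counts 3 to 40, with the STAT3-deficient count lower in 4 windows and higher in the other 3. After scaling by marked regions, equal counts give a log2 ratio of -0.30. The split by window therefore depends on the scaling. The region was one of the better filled, with more reads in both libraries together than 83.3% of marked regions. Its ratio ranked 1470 of 10971 from the lowest. Among 2018 marked regions of like read number, 97 had a ratio at or below its own. Their median log2 ratio was 0.05 and their lowest -1.60, scaled by marked regions. The Ahr start-site ratio of -0.37 thus lay towards the lower end of these regions.

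A lower stretch lay inside the gene, past the start-site peak. The region chr12:36215200-36216999, from 3.00 to 4.8 kb downstream of the start position, held 15 STAT3-deficient reads (8.40 to 24.7) and 51 wild-type reads (38.0 to 67.1). The counting intervals do not overlap, although both counts are small. The log2 ratio was -2.06 (-3.00 to -1.21), 4.17-fold lower, and -1.74 (-2.68 to -0.89) by library totals. It was at rank 18 from the lowest of all marked regions.

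This stretch is low and uneven, not a peak. In its 9 windows the STAT3-deficient library held 0 to 5 reads with a median of 1, and the wild-type library 0 to 13 with a median of 7, which was at least 10 in 1 window. STAT3-deficient reads were fewer in 8 windows and equal in 1. With 66 reads in both libraries together it was a poorly filled region, since only 13.1% of marked regions held fewer. Regions with so few reads spread more widely: of 2072 with read numbers within 20% of it, 55 (2.65%) were lower by the size rule and 5 had a ratio at or below its own, against 0.248% lower among the 2018 regions with read numbers like those of the Ahr start-site region. It was also at the edge of being called. With reads left unmoved, with windows joined only within 200 bp, or with at least 20 reads a window it was not called. Nor was it called on the STAT3-deficient library alone. With at least 8 reads a window it joined the start-site region, whose log2 ratio was then -0.60 (-0.91 to -0.29).

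The 1.6 kb between both Ahr regions held 22 STAT3-deficient and 27 wild-type reads, a log2 ratio of -0.59 (-1.47 to 0.27). The interval outside both regions held 461 STAT3-deficient and 497 wild-type reads, 5.64 per kb in STAT3-deficient and 6.08 in wild-type cells. Its log2 ratio was -0.40 (-0.59 to -0.22), and -0.08 (-0.27 to 0.10) by library totals. Most such reads are background, and whether the interval of this small difference excludes 0 rests on the scaling.

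The loci were also set against each other within the same libraries, which takes the scaling out. Since both genes were chosen on these read ratios, the differences are a description, with no test. The Cyp1b1 start-site region was lower than the Ahr start-site region by a log2 difference of -2.54 (exact conditional interval -3.43 to -1.70). Within Ahr, the downstream region was lower than the start-site region by -1.69 (-2.71 to -0.74). Between the Cyp1b1 region and the downstream Ahr region the difference was -0.85, with an interval that includes 0 (-2.04 to 0.37).

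**Figure D3:**
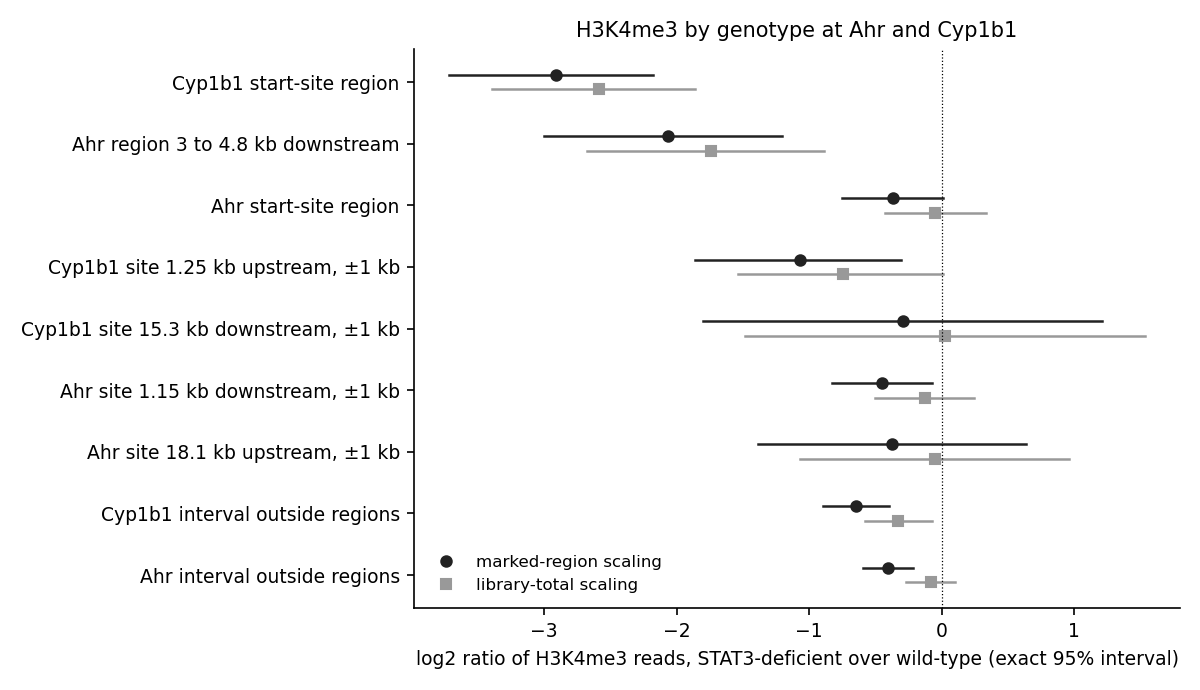
Log2 ratio of H3K4me3 reads, STAT3-deficient over wild-type (x axis), with exact 95% intervals for the called regions, for 1 kb each side of the phospho-STAT3 sites and for the intervals outside regions (rows), under the scaling by marked regions (circles) and by library totals (squares). The Cyp1b1 region at -2.91 and the Ahr region downstream of the start at -2.06 have intervals below 0 under both scalings, and the Ahr start-site region at -0.37 does not.

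The phospho-STAT3 library addresses STAT3 occupancy of these genes in wild-type cells. A large site lay just upstream of Cyp1b1, and Ahr had a moderate site on its start-site peak and another far upstream. A site is a run of 200-bp windows that hold 10 or more reads, with each strand present, at a Poisson p below 1e-08 when the genome-wide or the 10-kb local density, whichever is larger, is taken as expectation. Its excess is the count of its highest window minus the local expectation, and it is called strong when that is in the top 25% of all sites, at least 26.1 reads. Of the 4 sites 3 were strong, and by construction so are 25% of all sites.

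The Cyp1b1 site, chr17:80114950-80115499, was centred 1.25 kb upstream of the start position. Its highest window held 172 reads (147.3 to 199.7), 91 on the plus and 81 on the minus strand, where 9.80 were expected locally, a 17.6-fold level. By excess it was number 25 of 27061 sites, within the top 0.0924%. By fold it ranked 1622. The local expectation, taken over 10 kb, includes the site's own reads along with those around it. The same window held 4 STAT3-deficient and 4 wild-type H3K4me3 reads. Scaled to 1000000 library reads that is 0.331 STAT3-deficient and 0.326 wild-type H3K4me3 reads, and 16.98 in the phospho-STAT3 library, so the reads gathered in that library and not in the H3K4me3 libraries.

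Phospho-STAT3 reads were raised between this site and the gene as well. The 1.15 kb between the site and the H3K4me3 region held 71 phospho-STAT3 reads, 61.7 per kb. The H3K4me3 region itself held 119, or 59.5 per kb, with a highest window of 27 reads at the same place as the wild-type H3K4me3 maximum. Over the whole genome the phospho-STAT3 library averaged 4.79 reads per mappable kb. Wild-type H3K4me3 reads stood at 55.0 per kb in the same region, and the part of shared enrichment in these phospho-STAT3 counts was not tested. At the looser threshold of 1e-05 a further site of 28 reads was called 0.35 kb upstream of the start position, at 2.72-fold over its crowded surroundings. The other Cyp1b1 site under the main rule, chr17:80098600-80098849, lay 15.3 kb downstream of the start position with 15 reads (8.40 to 24.7). It was 9.74-fold over a low local density and ranked 22904 by excess, so it was among the weakest sites called.

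**Figure D4:**
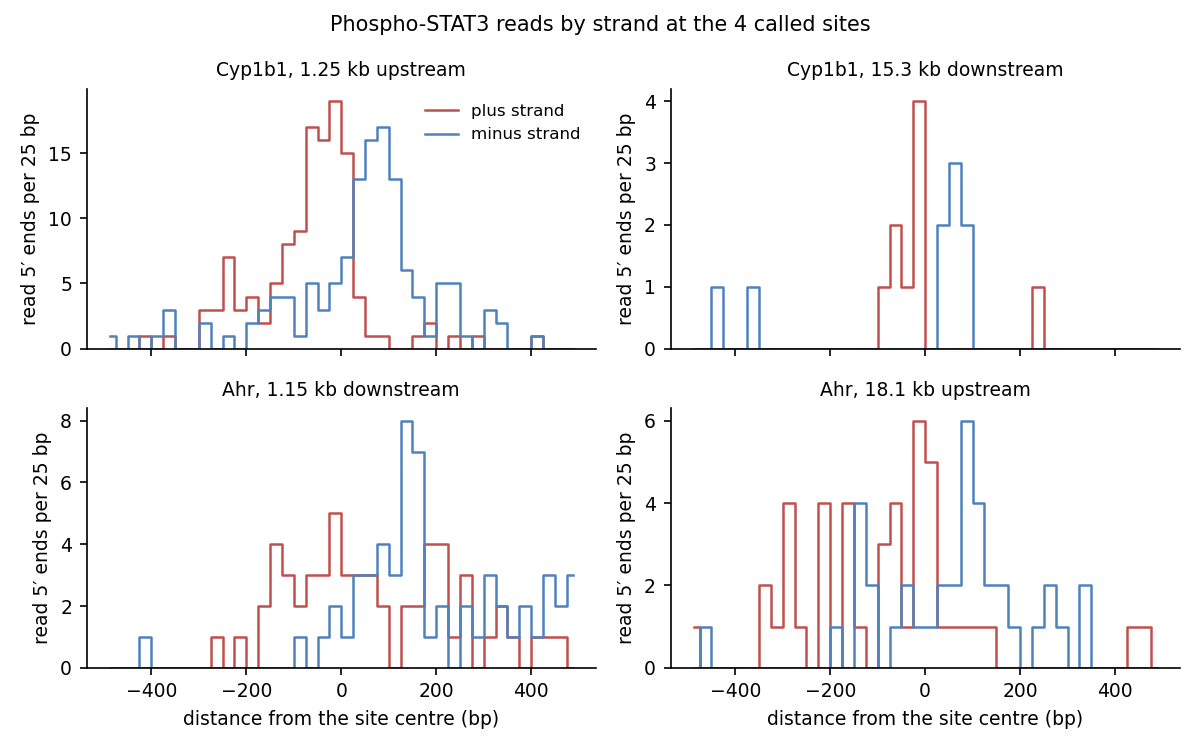
Phospho-STAT3 read 5′ ends per 25 bp on the plus and minus strands (y axis) by distance from the centre of each of the 4 sites (x axis, bp). At the site 1.25 kb upstream of Cyp1b1 the plus-strand reads pile up left of the minus-strand reads, with medians 115 bp apart, and the site 15.3 kb downstream shows the same order with few reads.

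The site at the Ahr start, chr12:36218650-36219299, was centred 1.15 kb downstream of the start position, inside the H3K4me3 region. Its highest window held 56 reads (42.3 to 72.7), 25 on the plus and 31 on the minus strand, 11.8-fold over a local expectation of 4.74. It ranked 1192 by excess. The same window held 35 STAT3-deficient and 34 wild-type H3K4me3 reads, and the same stretch was called by the site rule in both H3K4me3 libraries, as were 8.02% of all phospho-STAT3 sites. Scaled to 1000000 library reads the window had 5.53 in the phospho-STAT3 library, 2.90 in the STAT3-deficient and 2.77 in the wild-type H3K4me3 library. All 3 libraries thus peaked in the same window, and the phospho-STAT3 library most. No input library was analysed here, and the part of this shared enrichment in the phospho-STAT3 count was not tested.

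The other Ahr site, chr12:36237800-36238349, was centred 18.1 kb upstream of the start position and stood clear of the mark. Its highest window held 44 reads (32.0 to 59.1), 24 on the plus and 20 on the minus strand, 12.9-fold over local density, and it ranked 2195 by excess. The same window held 2 STAT3-deficient and 0 wild-type H3K4me3 reads, and a count of 0 allows up to 3 reads. At all 4 sites the minus-strand reads lay at higher coordinates than the plus-strand reads, with medians 92 to 145 bp apart.

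**Figure D5:**
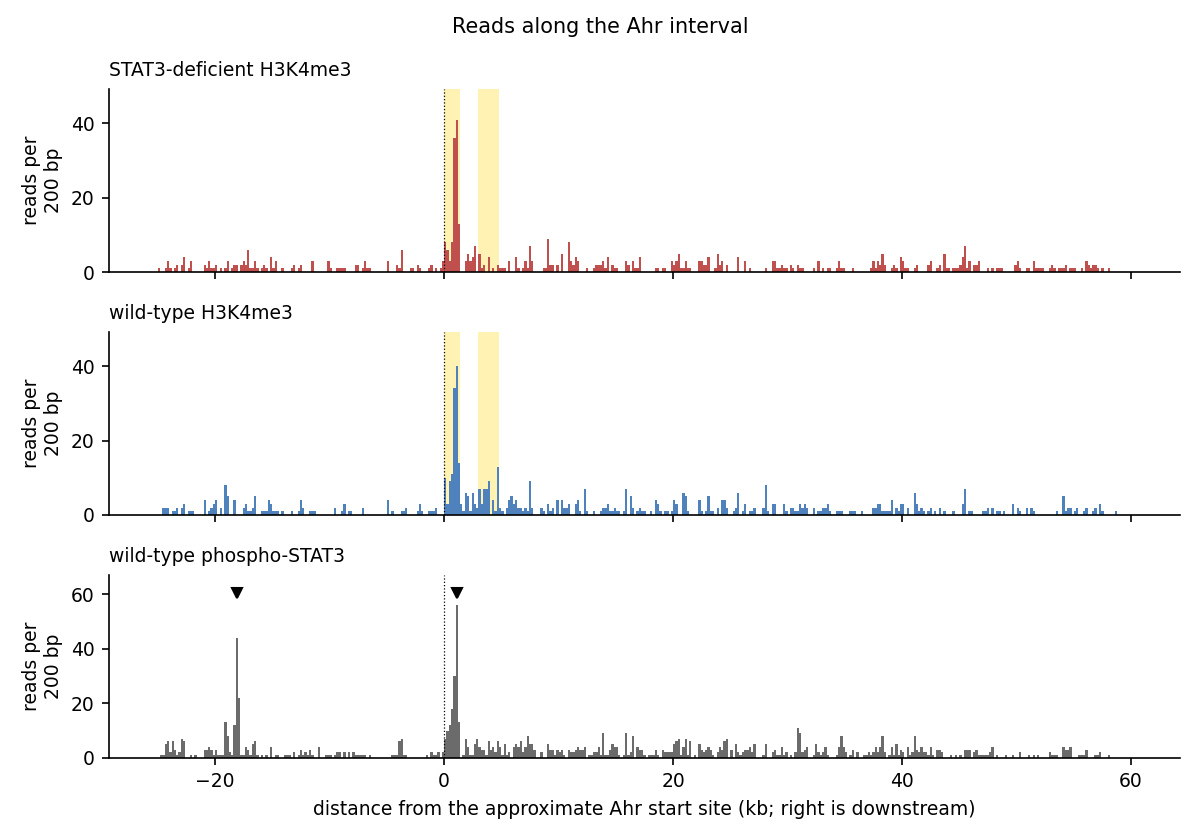
Reads per 200 bp (y axis) along the Ahr interval by distance from the approximate start site in kb (x axis, right is downstream), with 1 panel for each library. The start-site peak reaches 41 STAT3-deficient and 40 wild-type H3K4me3 reads in the same window, and the second shaded region holds 15 STAT3-deficient and 51 wild-type reads in all. Triangles mark the phospho-STAT3 sites at 1.15 kb downstream and 18.1 kb upstream.

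Phospho-STAT3 reads were also spread broadly over the Ahr gene and upstream of it. Outside the H3K4me3 regions, the gene span of 34.1 kb held 12.6 phospho-STAT3 reads per kb, the 25 kb upstream of the start position, far site included, held 10.5, and the 22.7 kb past the gene end held 6.48. In the gene span there were 6.36 STAT3-deficient and 7.95 wild-type H3K4me3 reads per kb. Upstream there were 4.92 STAT3-deficient and 4.76 wild-type reads per kb, and past the gene end 5.33 STAT3-deficient and 4.71 wild-type reads per kb. All 3 stretches were above the genome-wide phospho-STAT3 average. The H3K4me3 libraries averaged 5.71 STAT3-deficient and 5.81 wild-type reads per mappable kb over the genome. Of the 3 stretches, only the gene span was above these H3K4me3 averages. At the threshold of 1e-05 the gene span outside the H3K4me3 regions gave 1 further site of 13 reads, 31.0 kb downstream of the start position.

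H3K4me3 was also counted around each site. Within 1 kb of the large Cyp1b1 site there were 24 STAT3-deficient and 41 wild-type reads, a log2 ratio of -1.07 (-1.86 to -0.31), and -0.75 (-1.54 to 0.01) by library totals. This value depends on the width: within 0.5 kb it was -0.69 (-1.72 to 0.32) with 16 STAT3-deficient and 21 wild-type reads, and within 2 kb, which reaches into the Cyp1b1 start-site region, it was -1.66 (-2.21 to -1.13) with 42 STAT3-deficient and 108 wild-type reads. Within 1 kb of the Ahr start site's phospho-STAT3 peak there were 115 STAT3-deficient and 128 wild-type reads, a log2 ratio of -0.45 (-0.83 to -0.08), and -0.13 (-0.51 to 0.24) by library totals. Within 0.5 kb of it the ratio was -0.37, with an interval that includes 0 (-0.78 to 0.05). Around the far Ahr site the counts were 18 in STAT3-deficient and 19 in wild-type cells, and around the weak Cyp1b1 site 9 in STAT3-deficient and 9 in wild-type cells, too few to tell a difference. The distance from the centre of a site to the nearest marked region was 1.45 kb for the large Cyp1b1 site, 0 for the Ahr start, 18.1 kb for the far Ahr site and 13.1 kb for the weak Cyp1b1 site. No phospho-STAT3 site was called in the lower Ahr region, which held 32 phospho-STAT3 reads, 1 to 6 per window.

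Near other sites at least as strong, most marked regions were not lower by the size rule, but the share that was lower exceeded that of all marked regions. This difference in shares was not tested. Of the 24 other sites with an excess at least that of the Cyp1b1 site, 12 had a marked region within 5 kb. These were 11 regions, with log2 ratios of -2.62 to 0.45 and a median of -0.28. By the size rule 3 of them (27.3%) were lower and 0 higher, where 1.16% of all marked regions were lower and 1.01% higher, and 6 had an interval that included 0. The Cyp1b1 ratio of -2.91 lay below all 11. Within 5 kb of the 1191 other sites with an excess at least that of the Ahr start site, 19 of 322 marked regions (5.90%) were lower and 4 higher, with a median of -0.10. These 1191 include the large Cyp1b1 site, which lies 1.45 kb from the Cyp1b1 start-site region chosen with its low ratio known.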

How the data were processed

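Deposited files hold aligned reads of 25 bp, 1 line per read, with no score in use and no position and strand repeated. Per the submitters' processing notes the build was mm9 and SICER was used; the aligner is not given in the sources used here. Per the labels' protocols, libraries had 18 PCR cycles and fragments of about 250 bp with adapters.

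Reads were moved 75 bp towards the fragment centre. H3K4me3 regions came from the pooled reads of STAT3-deficient and wild-type cells (windows of 200 bp with at least 12 reads, joined within 600 bp, at least 2 windows). Log2 ratios carry exact Clopper-Pearson 95% intervals and counts exact Poisson ones. Reads without molecular identifiers are not independent molecules. Sites were called in steps of 50 bp over a mappable share of 0.8. Every called region and site of both intervals is accounted for, by the rule for named items. Callers were tested on simulated data. The members, lists and settings were chosen with earlier results of these data known. Alternatives covered scaling, calling, joining, read shift, fixed windows, background and site thresholds. Python 3.11.15, numpy 2.4.6, scipy 1.17.1, pandas 2.3.3 and matplotlib 3.10.9 were used.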

Additional observations from a re-analysis of the deposited data

How the results depend on the processing

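Of 64 values under alternatives, 52 stayed within the counting interval of the main value or within 1.5 times the main count, 12 moved and 0 reversed a called direction. Settings under which a region was not called gave no value and are not among the 64. Counts of regions past the size rule were judged by their total, not by their split into lower and higher. The interval of the Ahr start-site region, which includes 0, lay wholly below 0 under 7 of 9 alternatives with an interval. All 7 kept the scaling by marked regions. With background subtracted, the log2 ratio of the Cyp1b1 region moved to -4.07 (7.02 STAT3-deficient against 96.0 wild-type reads left), the difference between Cyp1b1 and Ahr to -3.70 and the lower Ahr region to -3.34. With at least 8 reads a window, the lower Ahr region joined the start-site region, and the 2 other regions then called had a log2 ratio of -0.71. Marked regions past the size rule numbered 238 of 10971 (2.17%), and 373 of 10971 by library totals. They numbered 409 of 16104 with at least 8 reads a window and 136 of 8725 with at least 20. When marked at 20 reads, they numbered 571 of 15684. Regions called on a single library were chosen after the data were seen. They gave 279 lower and 42 higher of 11411 with the wild-type library. With the STAT3-deficient library they gave 59 lower and 142 higher of 11523. The lower Ahr region, on the same coordinates with reads unmoved, had a log2 ratio of -2.03. Sites in the Ahr interval fell to 1 without those also called in both H3K4me3 libraries, and in the Cyp1b1 interval to 1 at a Poisson p under 1e-12. Over a 5-kb local density, the fold of the strongest site was 7.37 at Ahr and 9.82 at Cyp1b1. The local density includes the site's own reads, which weigh more over the shorter stretch. The Cyp1b1 start-site region was not called with at least 20 reads a window, nor on the STAT3-deficient library alone; the Ahr start-site region was called in both. No paired analysis was possible because each group had 1 library. With a single library for each group, counting error is the only error shown.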

Other observations

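Both genes had a further phospho-STAT3 site just beyond their intervals, on the upstream side. Above Ahr, a site of 67 reads, 15.0-fold over local density, lay 2.45 kb past the interval's edge. Above Cyp1b1, a site of 41 reads, 13.7-fold, lay 3.40 kb past the edge. On the downstream side the nearest site was 246.3 kb away for Ahr and 110.1 kb away for Cyp1b1. The nearest marked H3K4me3 regions outside the Ahr interval held 26 STAT3-deficient against 31 wild-type reads, 156.4 kb downstream of it, and 125 against 102 reads, 521.2 kb upstream. Those outside the Cyp1b1 interval held 35 STAT3-deficient against 36 wild-type reads, 75 kb downstream, and 82 against 69 reads, 159.2 kb upstream. The exact interval of the log2 ratio of each of these 4 included 0 after scaling by marked regions.

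The code for matching bases in each read was used in no comparison. Reads with a mismatch made up 3.72% of STAT3-deficient and 4.33% of wild-type H3K4me3 reads in the Ahr interval, and 3.54% of STAT3-deficient and 3.41% of wild-type reads in the Cyp1b1 interval, against 3.97% of STAT3-deficient and 3.90% of wild-type reads in the whole libraries. In the phospho-STAT3 library the share was 2.65% in the Ahr interval (Wilson 95% interval 1.83 to 3.84), below the 4.58% of the whole library, and 4.75% in the Cyp1b1 interval. The Ahr value was the only one of these 6 whose interval did not include its library's share. At 0 positions did 3 or more reads of the 3 libraries together differ from the reference, whichever way the code is read.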
